A study of Mus musculus with 19 samples.

Results

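The cytochrome P450 genes of families 1 to 4 were examined in the livers of 19 mice, through every gene on the array whose annotated symbol is Cyp1, Cyp2, Cyp3 or Cyp4 followed by a subfamily letter and a number, without the Cyp2b subfamily. The rule took 53 of the 16593 genes named on the array, and 39 of them gave a signal above background and were tested. All mice were male Swiss-Webster mice of 7 weeks, an outbred stock, which had been fasted and were injected i.p. under isoflurane anesthesia. The AM251/IDFP group (5 mice) received AM251 and then IDFP, each at 10 mg/kg, the IDFP group (8 mice) received IDFP alone at this dose, and the DMSO group (6 mice) received the solvent of both compounds. Livers were taken 4 h after treatment, and the RNA of each mouse was hybridized to its own Illumina MouseRef-8 v2.0 array. IDFP (isopropyl dodecylfluorophosphonate) inhibits MAGL and FAAH, which hydrolyze the endocannabinoids 2-AG and anandamide. AM251 blocks the cannabinoid receptor CB1. No group received AM251 alone among the samples used here, so an effect of AM251 itself and an effect of CB1 blockade on the response to IDFP cannot be told apart.

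Cytochromes P450 are heme enzymes of the endoplasmic reticulum that take electrons from P450 reductase and insert an oxygen atom into drugs, steroids, bile acids and fatty acids. Families 1 to 3 carry out most of the drug oxidation of the liver, and their genes are read by nuclear and xenobiotic receptors such as AHR, CAR and PXR. Family 4 oxidizes the far end of fatty acid chains, its Cyp4a subfamily is a target of PPARA, and members of families 2 and 4 also act on anandamide and on arachidonic acid, the fatty acid that endocannabinoid hydrolysis releases.

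Few P450 members passed the test in these livers. IDFP-treated mice differed from DMSO-treated mice in 4 of the 39 tested members, with Cyp2c40, Cyp2f2 and Cyp4f15 higher and Cyp4f13 lower. Of all 9346 genes tested, 16.3% were called in this comparison (6.75% higher and 9.53% lower). Cyp2c40 was above background in 1 of 6 DMSO-treated mice and entered the test only through the groups treated with IDFP. AM251/IDFP-treated mice differed from IDFP-treated mice in 2 members, with Cyp3a13 higher and Cyp4v3 lower, where 10.8% of all genes were called (5.97% higher and 4.85% lower). They differed from DMSO-treated mice in 2 members, with Cyp4f15 higher and Cyp2d13 lower, where 9.88% of all genes were called (3.66% higher and 6.22% lower). Calls are adjusted p-values under 0.05 from limma, a linear model fitted over all 3 groups, with Benjamini-Hochberg adjustment over all genes. The called members made up 10.3%, 5.13% and 5.13% of the tested members, which is below the share over all genes in each of the comparisons. These shares rest on 4, 2 and 2 members and are imprecise. Whether they differ from the share over all genes was not tested. The comparisons share arrays, so their counts are not independent of each other.

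The median log2 difference over the 39 members was 0.12 for IDFP vs. DMSO (all genes -0.00095), -0.08 for AM251/IDFP vs. IDFP (all genes -0.01), and 0.04 for AM251/IDFP vs. DMSO (all genes -0.01). At an unadjusted p under 0.05 there were 8, 6 and 8 members, and 30.8%, 24% and 24.6% of all genes. Signals throughout are background-corrected array intensities on a linear scale, and a probe's signal says nothing of how its gene compares with another gene. With whole liver, fewer cells of a type and less RNA per cell cannot be told apart.

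**Figure D1:**
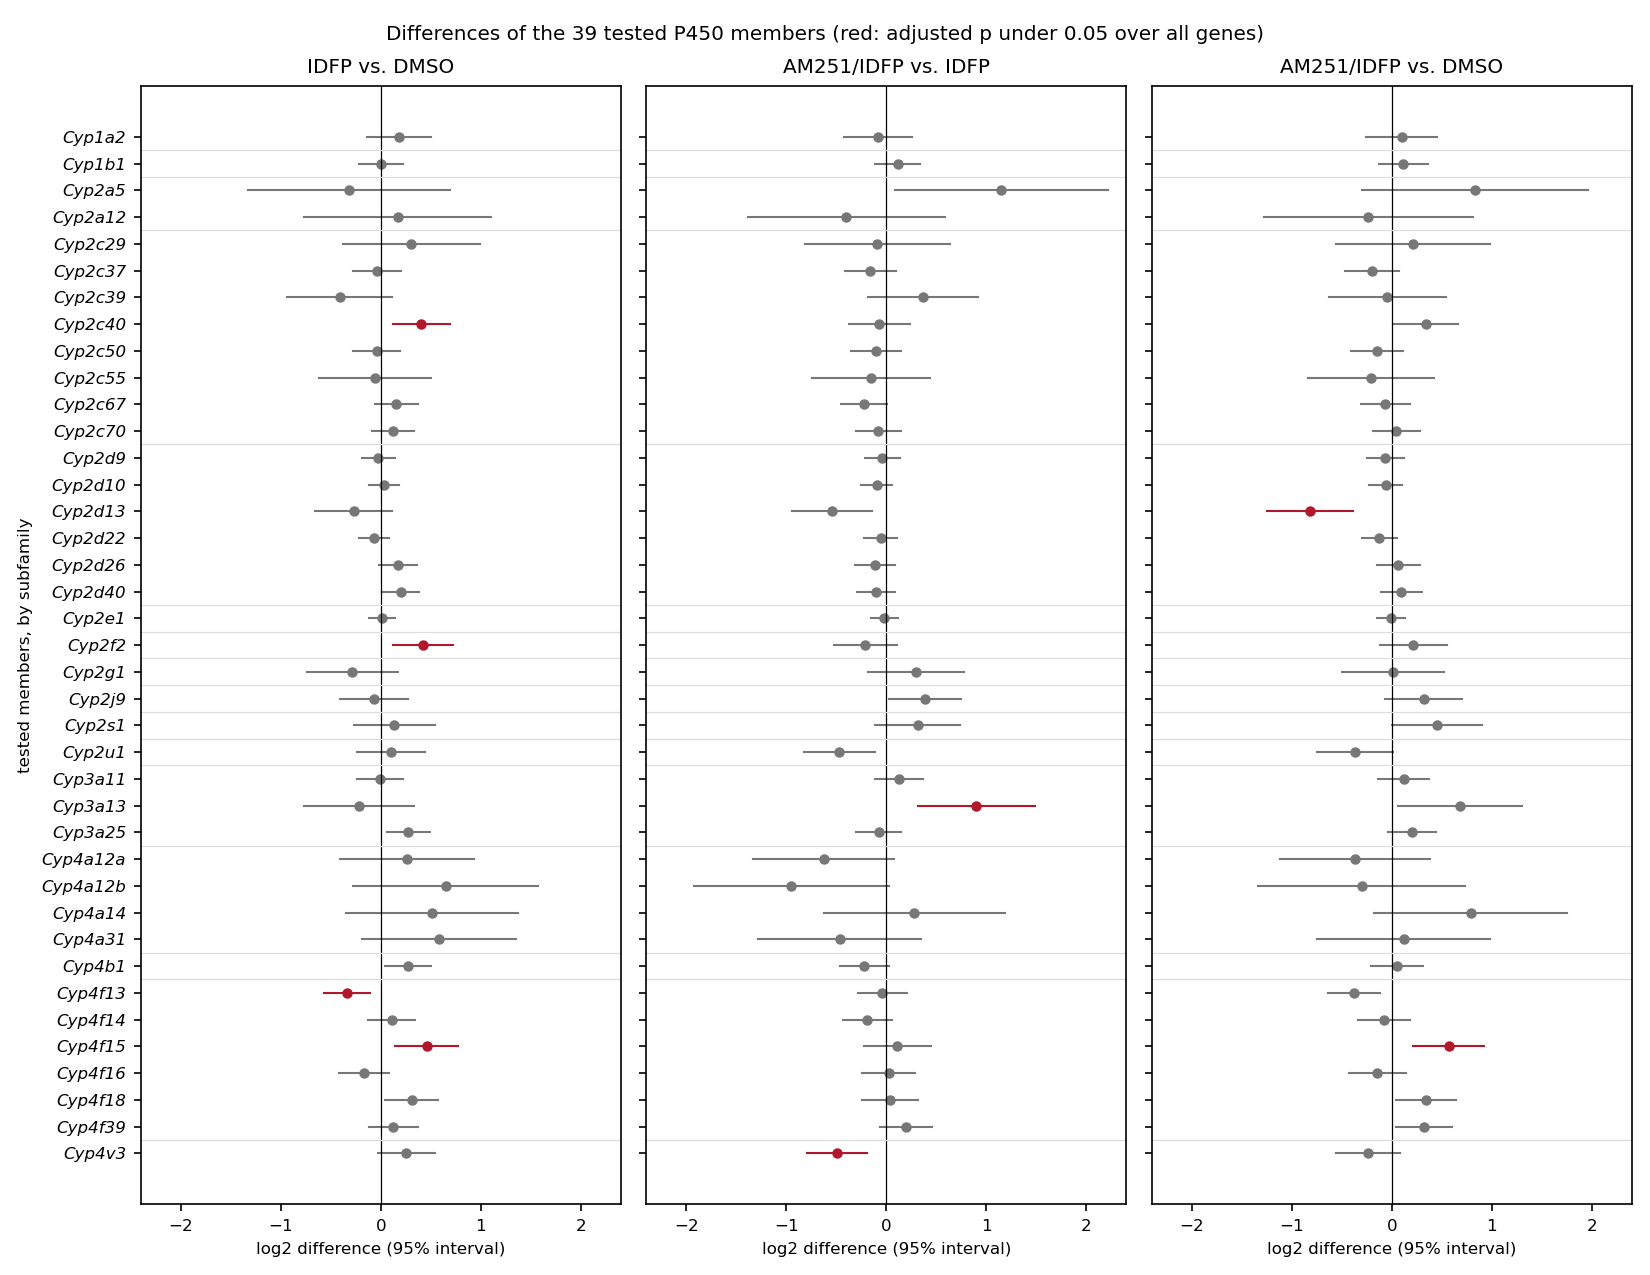
Log2 difference (point) with its 95% interval (line) for each of the 39 tested members, ordered by subfamily, in IDFP vs. DMSO (left), AM251/IDFP vs. IDFP (middle) and AM251/IDFP vs. DMSO (right), with members past the adjusted threshold in red. The red members number 4, 2 and 2, and the widest intervals belong to the Cyp2a and Cyp4a members.

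The other 14 members could not be tested, and 11 of these were above background on 0 arrays. These 11 were Cyp1a1, Cyp2c38, Cyp2d34, Cyp2j5, Cyp2j6, Cyp2j11, Cyp2j13, Cyp3a16, Cyp3a41a, Cyp3a44 and Cyp4x1. Cyp1a1, the enzyme most tightly tied to AHR, thus gave no measurable signal in any group, and neither did Cyp3a16, Cyp3a41a and Cyp3a44, which are known as female-predominant genes of mouse liver. Of 5 listed female-predominant P450 genes on the array, 2 that are not members were bright enough to be tested. Cyp2c65 was above background on 1 array and Cyp2d12 on 2 arrays, all of IDFP-treated mice. Cyp2r1, a vitamin D 25-hydroxylase, was above background in 2 of 5 AM251/IDFP-, 4 of 8 IDFP- and 3 of 6 DMSO-treated mice. Cyp4a10 was not analysed here.

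The labelled tissue carried most of its markers. Of 8 hepatocyte markers 7 were tested, and Fabp1 was too dim to test. The summed signal of all 8 lay between 100860 and 106001 in AM251/IDFP-, 94043 and 108022 in IDFP-, and 95030 and 105630 in DMSO-treated mice. Sums of markers include those on the array that were not tested. The array of AM251/IDFP mouse 3 correlated least with the others (mean r of 0.967 over all tested genes, against up to 0.982), and it had the highest summed neutrophil markers, at 6820. These markers summed to between 1375 and 2042 in the other AM251/IDFP-treated mice, 936 and 1641 in IDFP-treated mice, and 629 and 1479 in DMSO-treated mice. The array of AM251/IDFP mouse 1 had a sum of 12475 over markers of pancreas, adipose tissue and muscle, against at most 2655 on every other array.

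RefSeq entries of GRCm38.p6 gave the bases before the transcription start for 42 of the 53 members, among them 6 of the 7 called ones. The 150 bases before the start of Cyp4f15, Cyp4f13 and Cyp3a13 are shown because these members carry the calls of opposite direction in the Cyp4f cluster and the largest called difference. None of 7 short motifs searched on both strands occurred in these 3 windows: TATAAA (the TATA box), TGTTTAC (FOXA), CAAAGTCCA (HNF4A), GTTAAT (HNF1), AGGTCA (an element of nuclear receptors), GCGTG (AHR) and TTATGTAA (PAR bZIP factors).
Cyp4f15 (chr17:32685509-32685658, plus strand): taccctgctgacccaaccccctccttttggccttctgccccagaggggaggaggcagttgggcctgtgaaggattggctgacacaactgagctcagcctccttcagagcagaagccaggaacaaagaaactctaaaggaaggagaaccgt
Cyp4f13 (chr17:32947362-32947511, minus strand): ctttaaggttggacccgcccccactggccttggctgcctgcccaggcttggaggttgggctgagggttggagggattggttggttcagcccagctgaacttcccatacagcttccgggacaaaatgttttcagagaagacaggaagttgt
Cyp3a13 (chr5:137921620-137921769, minus strand): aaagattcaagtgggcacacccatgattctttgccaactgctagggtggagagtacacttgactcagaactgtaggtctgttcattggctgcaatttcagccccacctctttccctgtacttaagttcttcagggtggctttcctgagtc

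The members shared letters that the choice of genes by name did not use. In the 250 bases before the start, TATAAA occurred in 20 of 42 members (47.6%, against 14.3% of all 27025 genes with an entry), TGTTTAC in 7 (16.7%, against 3.54%), and CAAAGTCCA in 7 (16.7%, against 0.451%). The motif of HNF4A, a receptor of hepatocyte genes, is shown in capitals with 25 bases on each side for the 7 members that hold it, since it was the rarest of the shared motifs. They belong to the Cyp2c and Cyp3a clusters of related genes, so they are not 7 independent occurrences. Many of the 42 members lie in such clusters, so the shares of the other motifs do not rest on independent genes either. The members were not compared with other liver genes. Among the remaining motifs, GTTAAT occurred in 9.52% of members and 7.49% of all genes, AGGTCA in 8 of 42 members and 15.8% of all genes, GCGTG in 8 of 42 members and 30.9%, and TTATGTAA in 0 of 42 members and 0.977% of all genes. A match is a description of letters and does not show that a factor binds there.
Cyp2c40 (chr19:39812826-39812884, minus strand): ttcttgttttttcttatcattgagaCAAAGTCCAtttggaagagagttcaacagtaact
Cyp2c65 (chr19:39060865-39060923, plus strand): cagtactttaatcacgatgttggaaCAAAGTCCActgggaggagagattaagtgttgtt
Cyp2c67 (chr19:39649134-39649192, minus strand): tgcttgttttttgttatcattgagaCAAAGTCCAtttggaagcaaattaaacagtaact
Cyp2c70 (chr19:40187317-40187375, minus strand): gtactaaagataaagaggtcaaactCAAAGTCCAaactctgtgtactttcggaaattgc
Cyp3a11 (chr5:145879930-145879988, minus strand): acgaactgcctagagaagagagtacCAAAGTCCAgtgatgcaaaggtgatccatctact
Cyp3a16 (chr5:145469789-145469847, minus strand): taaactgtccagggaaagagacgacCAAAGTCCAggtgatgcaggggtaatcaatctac
Cyp3a41a (chr5:145720198-145720256, minus strand): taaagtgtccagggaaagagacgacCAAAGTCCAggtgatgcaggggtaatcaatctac

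Of the 7 members with the HNF4A motif, Cyp2c40 was called for IDFP vs. DMSO, where 16.3% of all genes were called. Cyp2c40 was above background in 1 of 6 DMSO-treated mice and entered the test only through the groups treated with IDFP. Cyp2c67, Cyp2c70 and Cyp3a11 were tested and did not pass in any comparison. Cyp2c65, Cyp3a16 and Cyp3a41a could not be tested. Hnf4a itself was lower in IDFP- than in DMSO-treated mice by a log2 difference of -0.43 (SE 0.13, adjusted p = 0.0237 from limma) and higher in AM251/IDFP- than in IDFP-treated mice by 0.46 (SE 0.13, adjusted p = 0.0307). The log2 differences of the 4 tested members for IDFP vs. DMSO were 0.41 for Cyp2c40, 0.16 for Cyp2c67, 0.12 for Cyp2c70 and -0.01 for Cyp3a11. A link of these differences with the motif or with Hnf4a was not tested.

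In family 1, Cyp1a2, which oxidizes caffeine and aromatic amines, gave signals of 6109, 7306, 4495, 9640 and 8280 in AM251/IDFP-treated mice. IDFP-treated mice ranged from a lowest signal of 6126 through a median of 7442 to a highest of 9025, and DMSO-treated mice had a lowest of 4892, a median of 6695 and a highest of 8491. The groups overlapped nearly throughout. The log2 difference was 0.18 for IDFP vs. DMSO (95% interval -0.14 to 0.50, adjusted p = 0.464 from limma) and -0.08 for AM251/IDFP vs. IDFP (95% interval -0.42 to 0.25, adjusted p = 0.810). Cyp1b1, an AHR target outside hepatocytes, was dim, at 70.5 ± 8.07 (SD, n = 5) in AM251/IDFP-, 65.5 ± 10.1 (SD, n = 8) in IDFP- and 65.2 ± 8.27 (SD, n = 6) in DMSO-treated mice, and passed in no comparison. Among the AHR targets outside these families, 1 of 3 tested genes was called for IDFP vs. DMSO, beside 16.3% of all genes. This was Tiparp, which encodes an ADP-ribosyltransferase that restrains AHR, with a log2 difference of 0.73 (SE 0.19, adjusted p = 0.0119).

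Cyp2e1, which oxidizes ethanol and acetaminophen, was the steadiest member. Its signals were 26499, 27825, 30616, 27145 and 28394 in AM251/IDFP-treated mice, between 27376 and 30616 with a median of 28134 in IDFP-treated mice, and between 26186 and 29628 with a median of 28543 in DMSO-treated mice. No mouse of any group stood apart. Its log2 difference was 0.01 for IDFP vs. DMSO (95% interval -0.11 to 0.14), -0.02 for AM251/IDFP vs. IDFP (-0.16 to 0.11) and -0.01 for AM251/IDFP vs. DMSO (-0.15 to 0.13). The SD between mice within groups was 0.07 on the log2 scale, and 0.0749% of all tested genes, Cyp2e1 included, had one as small or smaller. Signals this high stand near the top of the array, since 72 genes, 6 of them members (Cyp2c37, Cyp2c50, Cyp2c70, Cyp2d9, Cyp2e1 and Cyp3a11), had mean signals over 20000 and the highest deposited value was 37432. Whether the brightest probes were saturated was not tested. Quantile normalization gives every array the same set of values, and its part in the small spread of such a bright gene was not tested.

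The Cyp2d subfamily, which oxidizes many basic drugs and, in Cyp2d9, testosterone, had 6 tested members. None of them passed for IDFP vs. DMSO or for AM251/IDFP vs. IDFP. For Cyp2d9, Cyp2d10 and Cyp2d22 the 95% intervals of the IDFP vs. DMSO log2 difference lay within -0.22 and 0.18. Of the 6 members with the smallest spread between mice, 5 were Cyp2d genes and the other was Cyp2e1.

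Cyp2d13 was the exception in its subfamily. Its signals were 368, 270.2, 216, 318 and 323 in AM251/IDFP-treated mice. The lowest, median and highest signals were 281, 441 and 577 in IDFP-treated mice, and DMSO-treated mice had a lowest of 366, a median of 477 and a highest of 896. All 5 AM251/IDFP-treated mice lay below the DMSO mean, and only AM251/IDFP mouse 1, at 368, reached the lowest DMSO signal. The log2 difference for AM251/IDFP vs. DMSO was -0.82 (SE 0.21, adjusted p = 0.0187 from limma). It was -0.54 (SE 0.19, adjusted p = 0.0788) for AM251/IDFP vs. IDFP and -0.27 (SE 0.18, adjusted p = 0.342) for IDFP vs. DMSO. The call did not pass without AM251/IDFP mouse 3 (adjusted p = 0.0553), the array with the high neutrophil markers. Of the 4 tested neutrophil markers, 3 were higher in AM251/IDFP- than in DMSO-treated mice, with log2 differences of 1.46 for S100a8, 1.36 for S100a9 and 1.37 for Retnlg (adjusted p of 0.0156, 0.0234 and 0.0036 from limma), while Mpo and Elane, enzymes of neutrophil granules, were not above background. Over all genes 3.66% were higher in this comparison. The part of the neutrophil markers in the Cyp2d13 and Cyp4f15 differences was not tested.

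The Cyp2c subfamily, which holds arachidonic acid epoxygenases and the muricholic acid enzyme Cyp2c70, had 8 tested members and 1 call. Cyp2c40, an arachidonic acid oxygenase, gave dim signals of 56.0, 58.5, 73.4, 68.6 and 73.4 in AM251/IDFP-treated mice. In IDFP-treated mice the signal had a lowest value of 53.9, a median of 63.5 and a highest of 89.2, against a lowest of 40.1, a median of 51.6 and a highest of 74.3 in DMSO-treated mice. It was above background in 3 of 5 AM251/IDFP-, 6 of 8 IDFP- and 1 of 6 DMSO-treated mice. It thus entered the test only through the groups treated with IDFP, where it was higher. All 8 IDFP-treated mice exceeded the DMSO mean although the groups overlapped. The log2 difference for IDFP vs. DMSO was 0.41 (SE 0.14, adjusted p = 0.0488 from limma), and this call was lost when any of 16 of the 19 arrays was left out, that is any but those of IDFP mice 1 and 7 and DMSO mouse 6 (adjusted p up to 0.132). With most DMSO arrays not above background, the size of the difference depends on how dim signals are treated, and it was 0.26 to 0.95 over the processing alternatives. A further probe of Cyp2c40 was too dim to test.

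Cyp2c37, Cyp2c50, Cyp2c67 and Cyp2c70 had log2 differences between -0.22 and 0.16 over the 3 comparisons, none of them past the threshold. Cyp2c29 varied widely, with signals from 1220 to 4107 in AM251/IDFP-, from 987 to 5615 in IDFP- and from 1406 to 3795 in DMSO-treated mice, and its 95% interval for IDFP vs. DMSO ran from -0.38 to 0.99. Cyp2c39, a retinoic acid hydroxylase, had signals between 1856 and 8348 in IDFP-treated mice, while all DMSO-treated mice lay between 4576 and 5474. Its log2 difference for IDFP vs. DMSO was -0.41 (SE 0.25, adjusted p = 0.281). The remaining member, Cyp2c55, passed in no comparison.

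Cyp2f2, which activates naphthalene in mouse lung and is known as a periportal gene in liver, was called for IDFP vs. DMSO. Its signals were 20282, 20515, 14417, 23209 and 18296 in AM251/IDFP-treated mice. Signals of IDFP-treated mice had a lowest of 15293, a median of 23497 and a highest of 27591, against 13059, 16010 and 20645 in DMSO-treated mice. Of the 8 IDFP-treated mice, 6 exceeded every DMSO-treated mouse and the other 2, mice 6 and 7, did not exceed the DMSO mean. The log2 difference for IDFP vs. DMSO was 0.42 (SE 0.14, adjusted p = 0.0490 from limma), and the call was lost on leaving out any of 13 of the 19 arrays, all but IDFP mice 6 and 7, AM251/IDFP mice 3 and 4 and DMSO mice 1 and 6 (adjusted p up to 0.128). For AM251/IDFP vs. IDFP it was -0.21 (SE 0.15, adjusted p = 0.445).

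Cyp2g1, Cyp2j9, Cyp2s1 and Cyp2u1, each the only tested member of its subfamily, passed in no comparison. Cyp2j9, an arachidonic acid enzyme, had a log2 difference of 0.39 (SE 0.17, adjusted p = 0.171) and Cyp2u1, a fatty acid hydroxylase, of -0.47 (SE 0.17, adjusted p = 0.0829) for AM251/IDFP vs. IDFP. All 5 AM251/IDFP-treated mice lay below the IDFP mean for Cyp2u1, which was dim and above background in 1 of 5 AM251/IDFP-, 6 of 8 IDFP- and 4 of 6 DMSO-treated mice. It thus entered the test only through the IDFP and DMSO groups, where it was higher. Its difference likewise depends on the treatment of dim signals, at -1.04 to -0.30 over the processing alternatives. Cyp2g1 and Cyp2s1 were dim as well, and neither passed.

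The largest difference of any member was not called. Cyp2a5, the coumarin 7-hydroxylase, had signals of 2640, 3070, 2050, 6474 and 9366 in AM251/IDFP-treated mice. In IDFP-treated mice the lowest signal was 942, the median 1472 and the highest 7191, and in DMSO-treated mice these were 908, 2069 and 6563. All 5 AM251/IDFP-treated mice exceeded 5 of the 8 IDFP-treated mice, and IDFP mouse 6 exceeded 4 of the 5. The log2 difference for AM251/IDFP vs. IDFP was 1.15 (SE 0.51, 95% interval 0.08 to 2.21, adjusted p = 0.169 from limma). The 4 probes of Cyp2a5 gave log2 differences of 1.15, 1.22, 1.18 and 0.90 for this comparison, with unadjusted p-values of 0.0358, 0.0271, 0.0452 and 0.0298. They read the same mice, so they are not independent of each other. Its neighbour Cyp2a12, a hydroxylase of testosterone and bile acids, had a log2 difference of -0.40 (95% interval -1.39 to 0.58) for the same comparison.

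**Figure D2:**
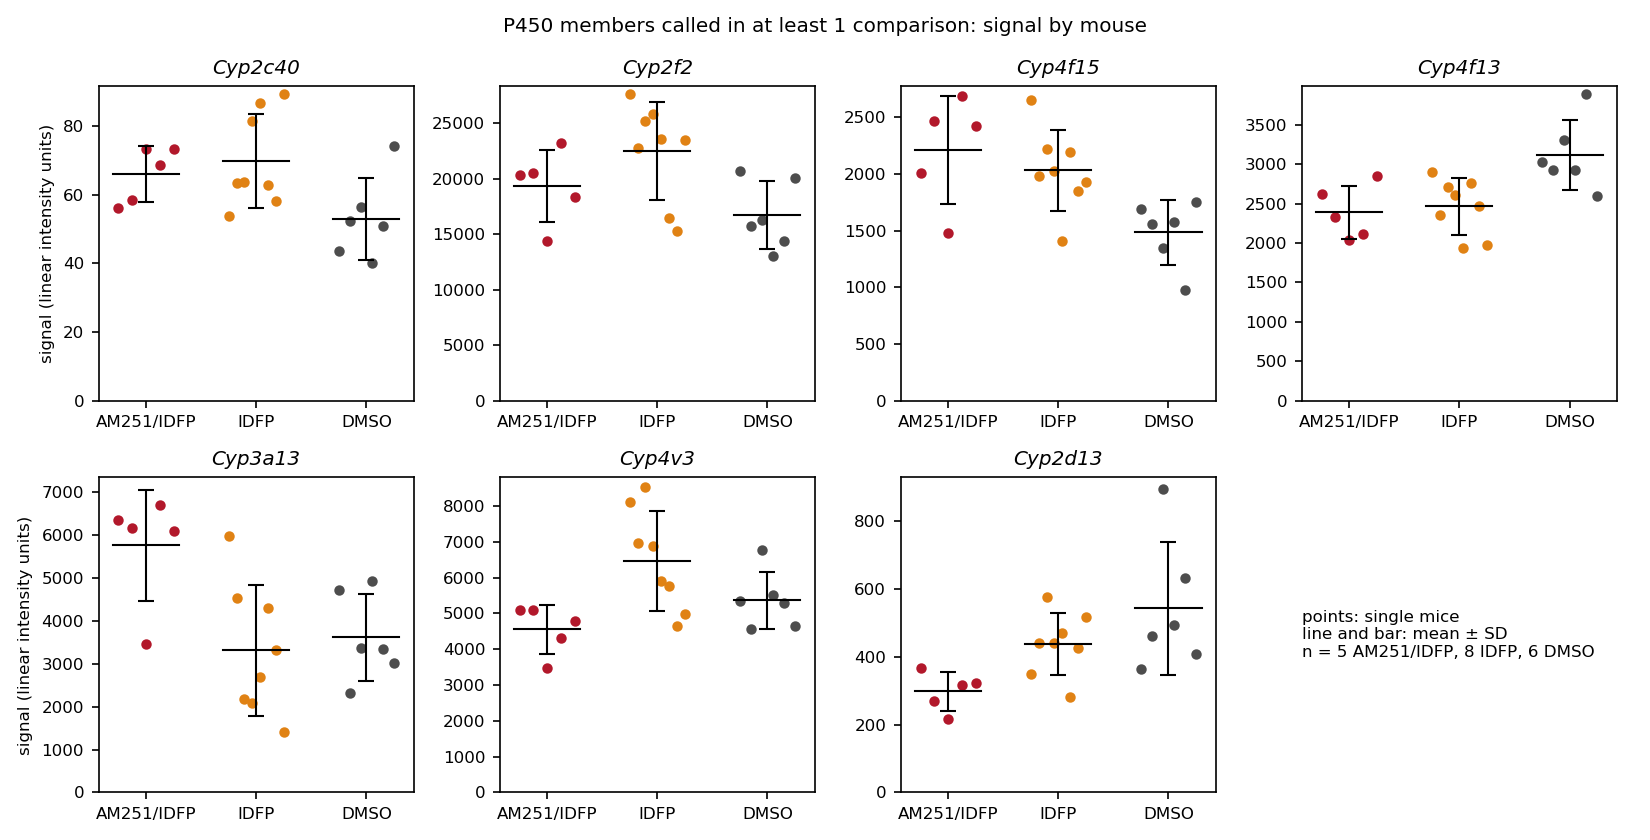
Signal (linear intensity units) of each mouse (points) for the 7 members called in at least 1 comparison, in AM251/IDFP-, IDFP- and DMSO-treated mice, with the mean and SD (line and bar). The groups overlap for every member, as for Cyp4v3, where the AM251/IDFP-treated mice lie between 3462 and 5107 and the IDFP-treated mice between 4641 and 8542.

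Family 3 holds the main drug oxidases of the liver. Cyp3a11, the classic PXR target among them, gave signals of 33685, 36170, 26285, 30337 and 31953 in AM251/IDFP-treated mice. Among IDFP-treated mice the lowest signal was 20725, with a median of 30538 and a highest of 34114, against a lowest of 21965, a median of 30275 and a highest of 31794 in DMSO-treated mice. AM251/IDFP mouse 2 was the highest of all 19, but the groups overlapped. The log2 difference was -0.01 for IDFP vs. DMSO (95% interval -0.24 to 0.22) and 0.13 for AM251/IDFP vs. IDFP (95% interval -0.11 to 0.37). Cyp3a25, which lies next to Cyp3a11, had a log2 difference of 0.28 for IDFP vs. DMSO (SE 0.10, adjusted p = 0.0712), with all 8 IDFP-treated mice above the DMSO mean.

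Cyp3a13, which lies apart from the other Cyp3a genes on the same chromosome with 221 genes between it and Cyp3a11, carried the largest called difference. Its signals were 6358, 6164, 3470, 6708 and 6109 in AM251/IDFP-treated mice. IDFP-treated mice had a lowest signal of 1418, a median of 2997 and a highest of 5981, and DMSO-treated mice had a lowest of 2326, a median of 3367 and a highest of 4928. Of the 5 AM251/IDFP-treated mice, 4 exceeded every mouse of both other groups, and mouse 3 fell among them. The log2 difference for AM251/IDFP vs. IDFP was 0.90 (SE 0.28, adjusted p = 0.0419 from limma). The call was lost on leaving out any of 9 arrays, those of AM251/IDFP mice 1, 2, 4 and 5 and IDFP mice 3, 4, 5, 7 and 8 (adjusted p up to 0.0916), and it passed in 3 of 9 processing alternatives (adjusted p up to 0.103). The 3 probes of Cyp3a13 gave 0.90, 0.88 and 0.65, with unadjusted p-values of 0.00408, 0.00731 and 0.103. For AM251/IDFP vs. DMSO the log2 difference was 0.68 (SE 0.30, adjusted p = 0.156).

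For scale, Cyp2b10, the CAR target of the subfamily left out here, had signals of 9864 ± 2697 (SD, n = 5) in AM251/IDFP-, 1230 ± 722 (SD, n = 8) in IDFP- and 959 ± 345 (SD, n = 6) in DMSO-treated mice, a log2 difference of 3.18 (SE 0.34, adjusted p = 1.15e-05) for AM251/IDFP vs. IDFP. None of the 39 tested members moved to that extent. Of 17 tested CAR and PXR targets that are not members, Cyp2b10 was the 1 that was higher for AM251/IDFP vs. IDFP, and Gadd45b, a growth arrest gene, was the 1 that was lower, with a log2 difference of -1.25. For IDFP vs. DMSO 4 were higher and 0 lower, among them Gadd45b with 2.69 and the transporters Abcc2 and Abcc3 with 0.56 each. For AM251/IDFP vs. DMSO 4 were higher and 0 lower as well. Over all genes 10.8% were called for AM251/IDFP vs. IDFP, 16.3% for IDFP vs. DMSO and 9.88% for AM251/IDFP vs. DMSO.

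The Cyp4a subfamily makes the omega-hydroxylases of fatty acids. Cyp4a14, its classic PPARA-responsive member, gave signals of 8348, 6547, 3211, 4272 and 8524 in AM251/IDFP-treated mice. IDFP-treated mice had a lowest signal of 1645, a median of 4431 and a highest of 18735, against 1896, 3501 and 4313 in DMSO-treated mice. IDFP mice 6 and 7, at 18735 and 11405, stood above every other mouse, while IDFP mouse 3 was the lowest of all 19. The log2 difference for IDFP vs. DMSO was 0.51 (SE 0.41, 95% interval -0.35 to 1.37, adjusted p = 0.443 from limma).

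All 4 tested Cyp4a members had a positive difference for IDFP vs. DMSO and none passed. The log2 differences were 0.26 for Cyp4a12a, 0.65 for Cyp4a12b, 0.51 for Cyp4a14 and 0.58 for Cyp4a31. The same mice were not high in all of them. Cyp4a31 was highest in IDFP mice 6 and 7 (6708 and 4928), like Cyp4a14, whereas among IDFP-treated mice Cyp4a12b was lowest in mice 6, 7 and 8 (152, 120.3 and 162) and highest in mouse 3 (910). Cyp4a12a and Cyp4a12b are near-identical copies, and whether their probes separate them was not tested.

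Of 15 tested PPARA targets outside the P450 families, 4 were higher and 1 lower for IDFP vs. DMSO. Over all genes 6.75% were higher and 9.53% lower there. Pdk4, the kinase that switches off pyruvate dehydrogenase, had a log2 difference of 2.70 (SE 0.45, adjusted p = 0.00034), and Ehhadh, a peroxisomal enzyme of fatty acid oxidation, of 0.68 (SE 0.19, adjusted p = 0.0199). Creb3l3 and Angptl4 had 0.53 and 0.49. Fgf21, a liver hormone of fasting, was lower by a log2 difference of -4.76 (SE 0.44, adjusted p = 1.28e-06). Ppara itself had a log2 difference of 0.10 (SE 0.16, adjusted p = 0.742).

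**Figure D3:**
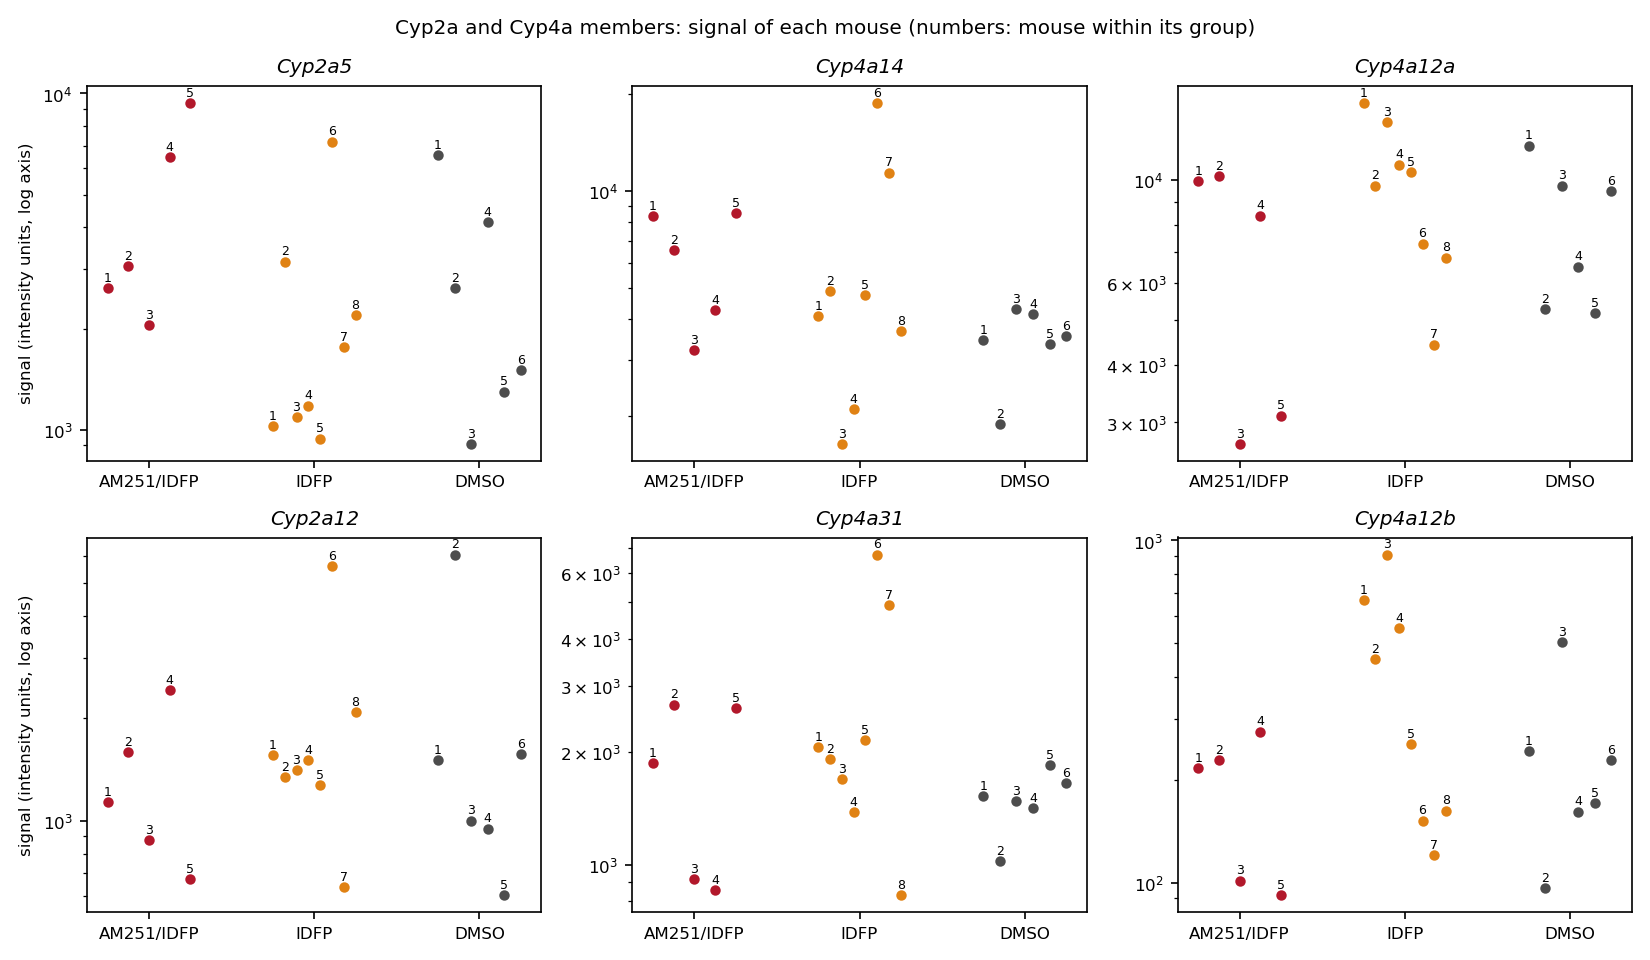
Signal of each mouse (log axis, intensity units) for Cyp2a5, Cyp2a12, Cyp4a14, Cyp4a31, Cyp4a12a and Cyp4a12b in AM251/IDFP-, IDFP- and DMSO-treated mice, with the mouse's number within its group beside each point. IDFP mouse 6 is the highest of its group for Cyp2a5, Cyp2a12, Cyp4a14 and Cyp4a31 and among the lower ones for Cyp4a12b.

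The Cyp4f subfamily, which inactivates leukotriene B4 and other eicosanoids, held members called in opposite directions. Cyp4f15 gave signals of 2005, 2465, 1479, 2688 and 2420.4 in AM251/IDFP-treated mice. Among IDFP-treated mice the lowest signal was 1405, with a median of 2003 and a highest of 2655, against a lowest of 975, a median of 1568 and a highest of 1753 in DMSO-treated mice. All DMSO-treated mice lay below 7 of the 8 IDFP-treated mice and below 4 of the 5 AM251/IDFP-treated mice. The log2 difference was 0.46 for IDFP vs. DMSO (SE 0.15, adjusted p = 0.0433 from limma) and 0.57 for AM251/IDFP vs. DMSO (SE 0.17, adjusted p = 0.0379). The first was lost on leaving out any IDFP array but that of mouse 5 or any of DMSO mice 2 to 5 (adjusted p up to 0.133), and the other on leaving out AM251/IDFP mouse 2, 4 or 5 or DMSO mouse 3, 4 or 5 (up to 0.105). Both use the same DMSO-treated mice.

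Cyp4f13, from the same gene cluster, was lower. Its signals were 2615, 2334, 2042, 2119 and 2842 in AM251/IDFP-treated mice. IDFP-treated mice had a lowest signal of 1931, a median of 2535 and a highest of 2902, against a lowest of 2597, a median of 2976 and a highest of 3890 in DMSO-treated mice. All 8 IDFP-treated mice lay below the DMSO mean, and the lowest DMSO signal fell among theirs. The log2 difference was -0.34 for IDFP vs. DMSO (SE 0.11, adjusted p = 0.0421 from limma) and -0.38 for AM251/IDFP vs. DMSO (SE 0.13, adjusted p = 0.0583). The first was lost on leaving out IDFP mouse 2, 5, 7 or 8 or any DMSO mouse but mouse 6 (adjusted p up to 0.125).

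Cyp4f14, a leukotriene B4 hydroxylase next to Cyp4f13 with 0 annotated genes between them, had log2 differences of 0.11, -0.19 and -0.08 in the 3 comparisons and did not pass. Cyp4f18, the leukotriene B4 hydroxylase of mouse neutrophils, was dim, at 67.1 ± 17.9 (SD, n = 5) in AM251/IDFP-, 64.4 ± 7.47 (SD, n = 8) in IDFP- and 52.3 ± 9.0 (SD, n = 6) in DMSO-treated mice. It did not pass either, with adjusted p-values of 0.101 for IDFP vs. DMSO and 0.138 for AM251/IDFP vs. DMSO from limma. It was above background in 3 of 5 AM251/IDFP-, 6 of 8 IDFP- and 1 of 6 DMSO-treated mice. Its highest signal, 98.9, came from AM251/IDFP mouse 4. Whether neutrophils contributed to the Cyp4f18 signal was not tested. Cyp4f16 and Cyp4f39 passed in no comparison.

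Cyp4v3, the mouse counterpart of the fatty acid hydroxylase gene mutated in Bietti crystalline dystrophy of the human retina, was called for AM251/IDFP vs. IDFP. Its signals were 5098, 5107, 3462, 4301 and 4789 in AM251/IDFP-treated mice. IDFP-treated mice had a lowest signal of 4641, a median of 6389 and a highest of 8542, and DMSO-treated mice had a lowest of 4568, a median of 5329 and a highest of 6772. All 5 AM251/IDFP-treated mice lay below the IDFP mean, and 2 of the 8 IDFP-treated mice fell within their range. The log2 difference was -0.49 (SE 0.14, adjusted p = 0.0308 from limma). It was 0.25 (SE 0.14, adjusted p = 0.214) for IDFP vs. DMSO. The call was lost without IDFP mouse 2, 3 or 4 or AM251/IDFP mouse 3 or 4, with adjusted p-values up to 0.114. Cyp4b1, the other single-member subfamily tested in family 4, did not pass.

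Mice of the same group differed widely in some members. The SD within groups on the log2 scale had a median of 0.27 over the 39 members and 0.21 over all 9346 tested genes, and 13 members (33.3%) lay above the 90th percentile of all genes. As many, 13, lay below the median of all genes, so the families held both widely varying and very steady genes. The most variable were Cyp2a5 (1.01), Cyp2a12 (0.94), Cyp4a12b (0.93), Cyp4a14 (0.86) and Cyp4a31 (0.77). The difference in spread between members and other genes is given as a description, without a test.

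**Figure D4:**
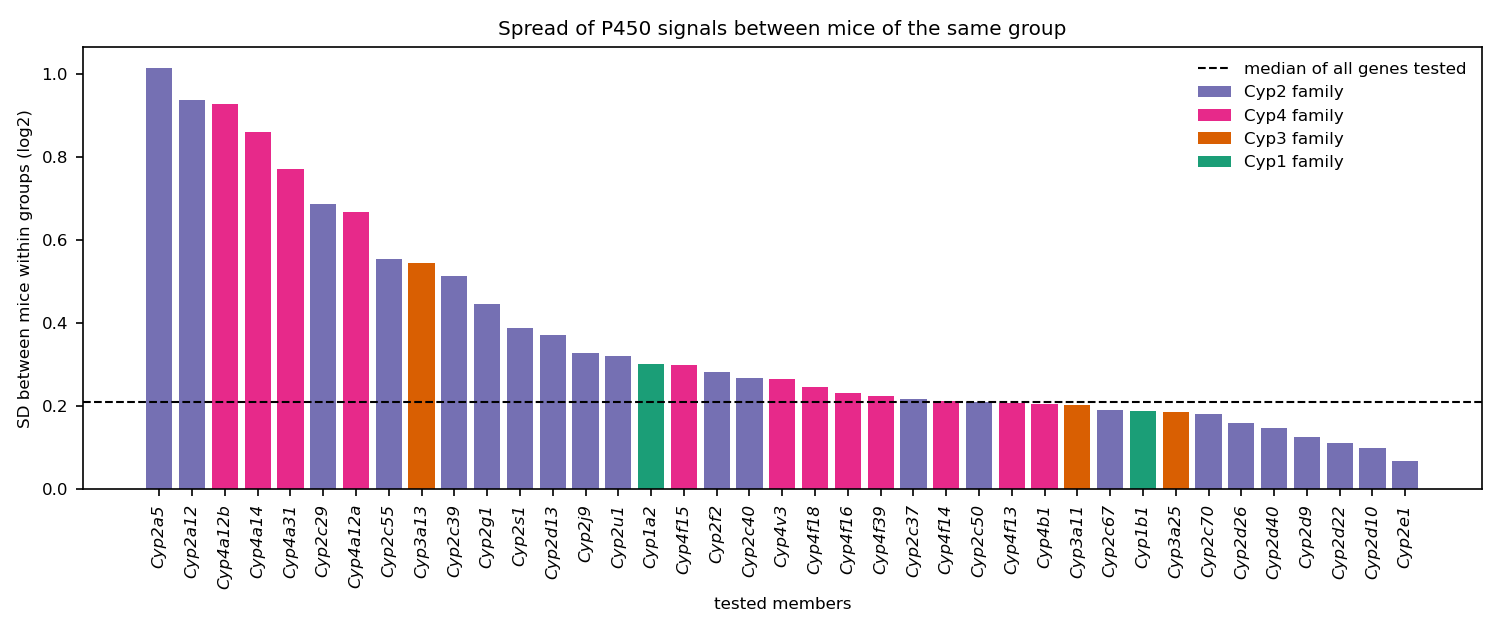
SD between mice within groups on the log2 scale (bars) for each of the 39 tested members, coloured by family, with the median over all 9346 tested genes as a dashed line. Cyp2a and Cyp4a members, with Cyp2c29 among them, stand at the left with SDs up to 1.01. Cyp2e1 and the Cyp2d members other than Cyp2d13 (0.37) stand at the right with SDs down to 0.07.

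Regulators of these genes were also examined. Of 19 tested receptors and factors of P450 genes, 1 was higher and 5 were lower for IDFP vs. DMSO. Over all genes 6.75% were higher and 9.53% lower there. Cebpb was higher by a log2 difference of 1.03 (SE 0.19, adjusted p = 0.000995). Nr1h4, the bile acid receptor FXR, was lower by -0.97 (SE 0.10, adjusted p = 2.84e-06), and Rxrb, Foxa2, Foxa3 and Hnf4a were lower by -0.59, -0.51, -0.42 and -0.43. For AM251/IDFP vs. IDFP, Foxa2 and Hnf4a were higher by 0.64 and 0.46, and Cebpa and Nfil3 were lower by -0.82 and -0.50. Over all genes 5.97% were higher and 4.85% lower there. For AM251/IDFP vs. DMSO 1 regulator was higher and 3 were lower, beside 3.66% and 6.22% of all genes. The receptors CAR (Nr1i3) and PXR (Nr1i2) passed in no comparison, with log2 differences for AM251/IDFP vs. IDFP of -0.69 (SE 0.24, adjusted p = 0.0730) and 0.20 (SE 0.14, adjusted p = 0.420).

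Of 12 tested genes for electron donors and heme enzymes, 0 were called for IDFP vs. DMSO, where 5 had an unadjusted p under 0.05 by limma. For AM251/IDFP vs. IDFP 1 of them was lower and 0 were higher. For AM251/IDFP vs. DMSO, Alas1, the rate-limiting enzyme of heme synthesis, was higher by a log2 difference of 1.20 (SE 0.35, adjusted p = 0.0339), and Alad, the next enzyme of the pathway, was lower by -0.53 (SE 0.13, adjusted p = 0.0137). Of 15 tested P450 genes of families 5 to 51, 0 were called in each comparison by limma, and 2 in each had an unadjusted p under 0.05. Over all genes 16.3% were called for IDFP vs. DMSO, 10.8% for AM251/IDFP vs. IDFP and 9.88% for AM251/IDFP vs. DMSO. An unadjusted p under 0.05 was found for 30.8%, 24% and 24.6% of all genes.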

How the data were processed

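Liver RNA from 19 mice was hybridized to single-colour bead arrays. BeadStudio 3.2 was used by the authors for quantile normalization and background subtraction, and 30.1% of the deposited intensity values lie below 0. Another deposited table was not used here, because its 38 value columns carry chip names that match no sample label, and chip effects were not tested. Probes were named through the platform annotation (23978 probes with 1 gene, 0 with several, 1719 unnamed). A probe was detected above 1.64 times the background SD of its array, estimated from the values below 0 (a threshold of 17.5 to 17.6 units). A gene entered the test through its brightest detected probe if, in any group, the majority of arrays detected it. Raw signals with detection p-values had been planned for and could not be used. Intensities were corrected by normexp (offset 16), transformed to log2 and quantile normalized again. The offset shrinks the differences of dim genes. Groups were compared in R 4.3.3 with limma 3.58.1 (lmFit, eBayes, two-sided, Benjamini-Hochberg adjustment), a procedure tested on simulated data. Python 3.11.15, numpy 2.4.6, pandas 2.3.3 and matplotlib 3.10.9 were used for sequences and plots. Single values of AM251/IDFP-treated mice and the lowest, median and highest of the larger groups are given for members past the threshold and for Cyp1a2, Cyp2e1, Cyp3a11 and Cyp4a14, and Cyp2a5 was added after its values were seen. Members, gene lists, motifs and rules were chosen with earlier results of these data known. Alternatives were another offset, a floor of 10 units without normexp, scaling to the median, other detection filters, the mean over probes, fits of 2 groups, another variance prior, the replicate number as a block, and leaving out each array. The number of arrays limits the precision.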

Additional observations from a re-analysis of the deposited data

Results flagged for a closer look

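Single mice stood far from the rest of their group in 11 of the 117 groups of values examined (39 members in 3 groups), by Dixon's test on linear signals. Chance flags about 1 in 20 groups if values are normally distributed and groups are independent. Linear signals were not shown to be normal, and the members were read in the same mice. Whether 11 flags exceed chance was therefore not tested. IDFP mouse 6 was the highest of its group for Cyp2a12 (5615, the other IDFP-treated mice between 637 and 2088), Cyp2a5 (7191, the others between 942 and 3164) and Cyp2g1 (149, the others between 45.1 and 65.7). These 3 genes lie in 1 cluster, with Cyp2g1 next to Cyp2a5. Cyp2a12 was also high in DMSO mouse 2 (6058, the other DMSO-treated mice between 603 and 1572).

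Cyp2s1 was high in AM251/IDFP mouse 3 (150.3, the others between 59.9 and 72.3) and in IDFP mouse 4 (119.9, the others between 50.1 and 70.7). These mice also had the highest summed cholangiocyte markers of their groups. The sums were 280 in AM251/IDFP mouse 3 (the others between 163 and 183) and 676 in IDFP mouse 4 (the others between 141 and 191). Of these markers 4 were on the array and 1 was tested, and a link with Cyp2s1 was not tested. Cyp3a13 was low in AM251/IDFP mouse 3 (3470, the others between 6109 and 6708). This array was the lowest of its group for most tested members, among them Cyp2c37, Cyp2d13, Cyp2f2, Cyp4a14, Cyp4f15 and Cyp4v3. It was the highest for others, such as Cyp2c70, Cyp2e1 and Cyp2u1. Without it 1 member was called for AM251/IDFP vs. IDFP and 1 for AM251/IDFP vs. DMSO, beside 7.23% and 5.84% of all genes. Cyp3a11 was low in DMSO mouse 3 (21965, the others between 30091 and 31794). Cyp4a12b was high in DMSO mouse 3 (504, the others between 96.5 and 242), Cyp4f16 in IDFP mouse 5 (126.5, the others between 68.1 and 90.6) and Cyp4f18 in AM251/IDFP mouse 4 (98.9, the others between 55.7 and 62.3).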

How the results depend on the processing

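The members' 4 calls for IDFP vs. DMSO became 0 with a floor of 10 units in place of normexp, 0 with no filter on dim probes, 2 with only those groups fitted and 1 with the replicate number as a block, where 16.3% of all genes were called before and 15.2%, 7.39%, 16.01% and 10.96% under these alternatives. The 2 calls for AM251/IDFP vs. IDFP became 1 with the floor, 1 with no filter, 1 with the mean over probes, 1 with only those groups fitted and 1 with another variance prior, where 10.8% of all genes were called before and 9.88%, 4.75%, 10.8%, 10.5% and 10.7% under these. The 2 calls for AM251/IDFP vs. DMSO became 1 with the floor, 1 with no filter and 1 with only those groups fitted, where 9.88% of all genes were called before and 8.43%, 3.81% and 4.81% under these. Leaving out each array gave 0 to 4, 0 to 4 and 1 to 3 calls, beside 11.1% to 18.6%, 7.23% to 11.7% and 4.33% to 12.7% of all genes. The cause of these changes was not tested. No called difference changed sign. Over single members, 94 values under an alternative fell short of a threshold passed before, 13 newly passed and 3154 stayed on their side.

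Deviations from the group mean had a mean r of 0.0162 over 16 same-numbered pairs of mice, 5 of them over 0.1. Other-numbered pairs had a mean r of -0.0025 over 102 pairs, 14 of them over 0.1. The labels do not say whether a number marks a shared batch, and these correlations cannot decide it. With the block, IDFP vs. DMSO kept the call of Cyp2f2. In AM251/IDFP vs. IDFP Cyp3a13 lost its call (adjusted p = 0.0950 from limma) and Cyp2u1 gained one (adjusted p = 0.0220), giving 0 higher and 2 lower with 5.62% of all genes called. In AM251/IDFP vs. DMSO Cyp2u1 was added (adjusted p = 0.0320), giving 3 calls with 8.45% of all genes. Cyp2u1 was above background in 1 of 5 AM251/IDFP-treated mice. It entered the test only through the IDFP and DMSO groups, where it was higher. Among processing alternatives, Cyp2d13 passed in all 9 (adjusted p of 0.0167 to 0.0431 from limma), Cyp4v3 in 8 of 9, Cyp2f2, Cyp4f13 and Cyp4f15 (after either treatment) in 6 of 9 each, and Cyp3a13 and Cyp2c40 in 3, of 9 and 8. The chip as a block was not run, since chips could not be tied to mice. Dim members have only a small margin over background, which limits their differences.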
